A study of Mus musculus with 9 samples.

Results

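The 39 genes described here belong to the NF-kB and innate inflammatory programme. They were given as a list of symbols that names receptors, adaptors, NF-kB subunits, inhibitors, cytokines, surface molecules, and survival and stress genes. The symbols were matched to the Ensembl identifiers of a table of 21159 mouse genes, and all 39 were found. Each had at least 10 raw counts in 3 or more of the 9 libraries, the level set for their use. The test across all genes kept 11196 genes and 38 of the 39, leaving out Cd80 for low counts. The list was drawn up with earlier results of these data known.

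RNA was measured by QuantSeq, which sequences a tag near the 3' end of each transcript, in mouse bone marrow cells grown in culture. All groups came from lineage-depleted marrow carrying both a floxed Runx2 gene and an inducible Cre recombinase (Runx2fl/fl with the CreERT2 transgene). A retrovirus expressing the leukaemia fusion KMT2A-MLLT1 with eGFP was used for transformation, and cells were kept with IL-3, IL-6 and SCF and replated in methylcellulose at intervals of 7 days. The labels give BM progenitor as untreated cells whose RNA was taken ahead of the first replating, and leave unsaid whether they already carried the fusion. Transformed cells were moved to suspension culture and received ethanol (Runx2wt) or 400 nM 4-hydroxytamoxifen (4-OHT), the drug that switches Cre on, for 24 h (Runx2ko). There were 3 libraries in each group, named as independent biological replicates. Culture form, passage and transformation differ together between BM progenitor and the other groups. Drug, Cre activity and Runx2 deletion likewise go together, so these cannot be told apart. No promoter or cell type is named for the Cre or the retrovirus, and ages of the mice are not stated. One extraction note speaks of T-ALL cells, so T and NK cell markers were examined (9 listed, 8 in the table). The 6 genes of the T-cell receptor complex and its co-receptors, Cd3e, Cd3d, Cd3g, Cd4, Cd8a and Trac, were at 0 to 4.76 CPM in all 9 libraries. Lck, a kinase of T-cell signalling, was at 3.10 to 22.6 CPM and passed as higher in Runx2ko than in BM progenitor. Nkg7, a granule protein of cytotoxic cells, was at 89.4 to 100.3 CPM in BM progenitor and 2.22 to 30.1 CPM in the transformed libraries, and passed as lower in both groups.

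NF-kB is a family of transcription factors built from dimers of Rel proteins. In resting cells, IkB proteins hold the dimers in the cytoplasm. Toll-like receptors, through Myd88 and the Irak kinases, and cytokine receptors activate the IKK kinases, which mark IkB for destruction and release the dimers to the nucleus. There they switch on cytokines, co-stimulatory molecules and survival genes, and also their own inhibitors, which close the loop. In marrow, monocytes, macrophages and neutrophils use this programme to respond to microbes.

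Promoter windows from RefSeq (build GRCm38.p6, 250 bases before to 50 after an annotated start) were matched for 31 of the 39 genes. The letters GGGNNTTTCC, a form of the kB site that NF-kB dimers bind, were searched on both strands. They occurred in windows of 6 of the 31 genes (19.4%) and of 1.89% of all 27025 genes with a window. A more degenerate kB consensus, which overlaps that motif without taking in all of its forms, occurred in 12 of the 31 (38.7%) and in 5.14% of all genes. The Il1rn site matched the first motif only. The 6 genes code for 2 NF-kB subunits (Rel, Nfkb2), for Nfkbia and Tnfaip3, which restrain NF-kB, and for Il6 and Il1rn. Their sites are shown because these genes sit on different arms of the loop and are followed by library below. Each is written 5' to 3' in the direction of the gene, with the motif or its reverse complement in capitals. The Rel site lies at chr11:23771041-23771070, minus strand, with the motif 91 bases before the start. The Nfkbia site is at chr12:55492657-55492686, minus strand, 29 bases before the start, and the Tnfaip3 site at chr10:19015403-19015432, minus strand, 12 bases before the start. The Nfkb2 sites are at chr19:46304716-46304745 and chr19:46305695-46305724, plus strand. The first is 11 bases before 1 annotated start, and the other is 225 bases before another start and 10 bases after yet another. The Il6 site is at chr5:30013060-30013089, plus strand, 44 bases before the start. The Il1rn site is at chr2:24345310-24345339, plus strand, 51 bases before 1 start and 29 bases after another. Distances are counted from the annotated start to the first motif base.
Rel: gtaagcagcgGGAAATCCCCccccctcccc
Nfkbia: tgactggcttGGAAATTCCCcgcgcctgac
Tnfaip3: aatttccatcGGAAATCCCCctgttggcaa
Nfkb2 site a: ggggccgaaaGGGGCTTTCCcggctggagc
Nfkb2 site b: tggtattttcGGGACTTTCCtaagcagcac
Il6: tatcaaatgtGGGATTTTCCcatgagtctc
Il1rn: ggaaatatgaGGGTTTTTCCgcttctgaca
These matches are a description of the letters and do not show binding.

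Library totals ran from 3118594 to 5348177 counts. Levels are in CPM, each count divided by the TMM-scaled library size and put on a common scale, and every set of 3 values is given in the order of replicates 1, 2 and 3. Runx2 itself was at 53.3, 46.7 and 58.8 CPM in BM progenitor, 159, 179 and 131 CPM in Runx2wt and 21.0, 120.1 and 135 CPM in Runx2ko. Which part of Runx2 is floxed is not stated in the labels, and a 3' tag outside that part does not report the deletion. Runx2ko replicate 1 stood apart from the other 5 transformed libraries. Its correlation with them over log2(CPM + 1) was 0.811 to 0.832, while theirs with each other was 0.941 to 0.964. The summed level of 18 monocyte and macrophage markers was 759 CPM in it, 5730 to 13215 CPM in the other transformed libraries and 4461 to 6379 CPM in BM progenitor. Its 14 mast cell and basophil markers summed to 6278 CPM, against 91.3 to 602 CPM and 1219 to 1332 CPM. Its 9 erythroid and megakaryocyte markers summed to 811 CPM, against 22.6 to 95.7 CPM in all other libraries. For 9 stem and progenitor markers, which share Kit and Gata2 with the mast cell list, it was 1591 CPM against 542 to 934 CPM. Its 16 neutrophil markers summed to 1089 CPM, the lowest of all libraries. In such bulk samples fewer cells of a type and less RNA per cell cannot be told apart. Counts of calls among these genes and the other genes of the pathway are therefore given with and without that library. Levels, marker counts, group overlaps and within-group ranges include it unless stated. A gene passed at an edgeR adjusted p under 0.05 over all tested genes, in the fit of all 9 libraries unless stated.

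**Figure D1:**
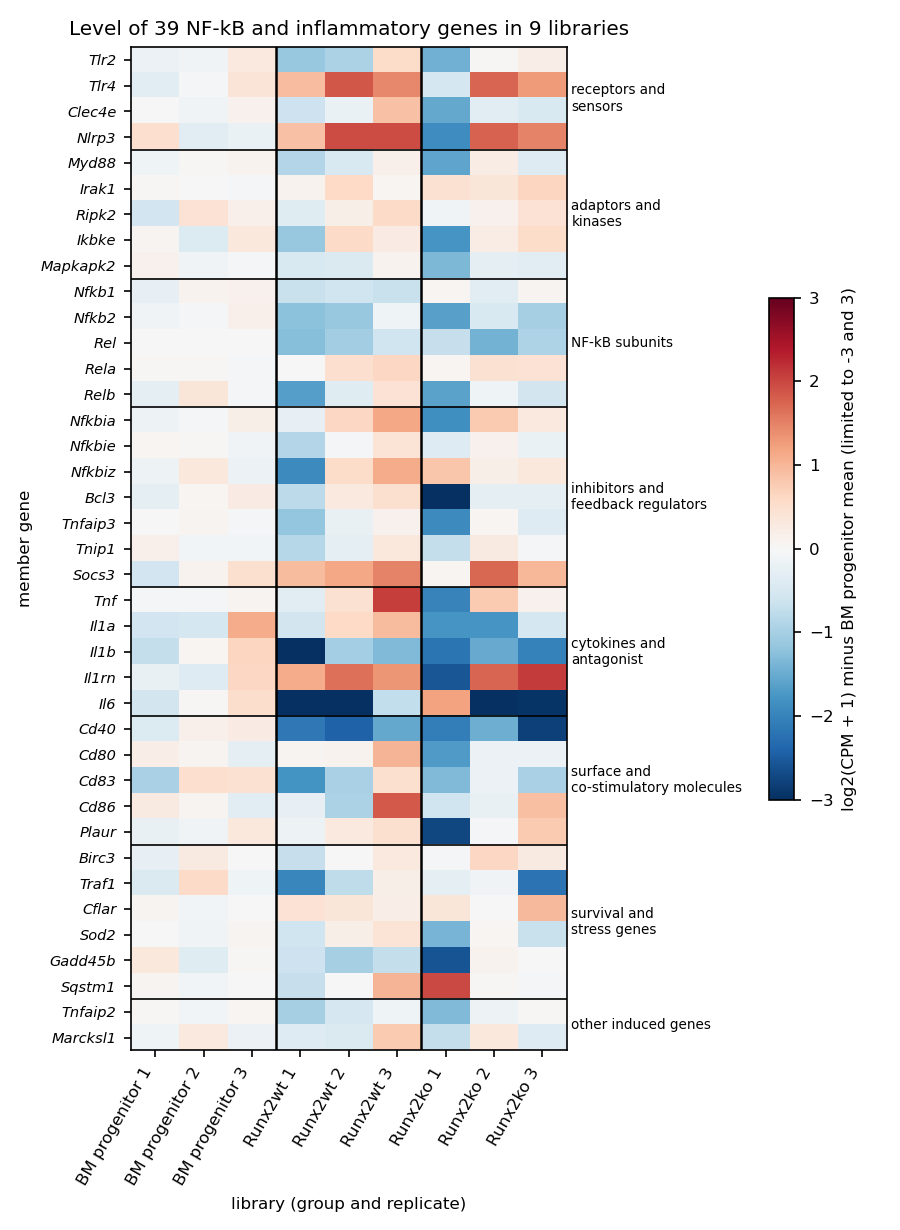
Levels of the 39 genes (rows, grouped by role) in 9 libraries (columns), as the difference in log2(CPM + 1) from the mean of the BM progenitor libraries; the colour scale runs from -3 (blue) to 3 (red). The column of Runx2ko replicate 1 is blue for most genes, and Runx2wt replicates 1 and 3 differ from each other across most roles.

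In Runx2wt against BM progenitor cells, the subunit genes Nfkb1 and Rel and the co-stimulatory receptor gene Cd40 were lower, and no gene of the list passed as higher. Rel was at about the same level in all 3 BM progenitor libraries and lower in each transformed library. When Runx2ko replicate 1 was left out, the cytokine gene Il1b and the stress gene Gadd45b were lower too. In that fit the receptor genes Tlr4 and Nlrp3, the feedback inhibitor Socs3 and the IL-1 antagonist Il1rn were higher. Thus 0 of 38 passed as higher, where 8.28% of all tested genes did, and 3 of 38 as lower, where 5.23% did. Leaving that library out, the counts were 4 of 39 higher, against 15.9% of all genes, and 5 of 39 lower, against 12.1%. As shares of the list these counts are 0%, 7.89%, 10.3% and 12.8%, close to or below the shares of all genes. The groups did not overlap for 6 of the 38 that were higher (24.8% of all genes) and 8 that were lower (24.5%). The median log2 fold change was 0.039 over the 38 genes and 0.011 over all tested genes.

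The calls for Nfkb1 and Cd40 were lost without any 1 library of the compared groups, and that for Rel without any but Runx2wt replicate 3. Their estimates kept their direction in all 17 alternatives, at -0.77 to -0.62 for Nfkb1, -1.22 to -0.86 for Rel and -3.70 to -2.64 for Cd40 on the log2 scale. Leaving out any 1 of the BM progenitor libraries left no call among the 38, with a smallest adjusted p of 0.0646 without replicate 1, 0.126 without replicate 2 and 0.118 without replicate 3. The same fits called 119, 102 and 83 genes lower of all those tested, in place of 586. No gene of the list passed without Runx2wt replicate 1 (smallest adjusted p 0.0876) or replicate 2 (0.108), and Rel alone passed without replicate 3 (0.0434). Markers of other cells also differed between these groups, and their part in the results was not tested. The summed neutrophil markers (16 genes, 4 lower and 1 higher in Runx2wt) ran from 12266 to 16591 CPM in BM progenitor and from 1775 to 4657 CPM in Runx2wt. Eosinophil markers (9 listed, 8 tested, 7 lower) ran from 1377 to 1839 CPM and from 2.49 to 4.52 CPM. Dendritic cell markers (11 listed, 9 tested, 5 lower) ran from 304 to 404 CPM and from 62.1 to 122 CPM. Mast cell and basophil markers (14 listed, 11 tested, 4 lower, 1 higher) ran from 1219 to 1332 CPM and from 114 to 363 CPM. Monocyte and macrophage markers (18 listed, 17 tested) had 2 genes higher and 2 lower. Their sum ran from 4461 to 6379 CPM in BM progenitor and from 7070 to 13215 CPM in Runx2wt, without overlap. Without the lysozyme gene Lyz2 these sums overlapped, at 1757 to 2578 CPM and 2486 to 3558 CPM.

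**Figure D2:**
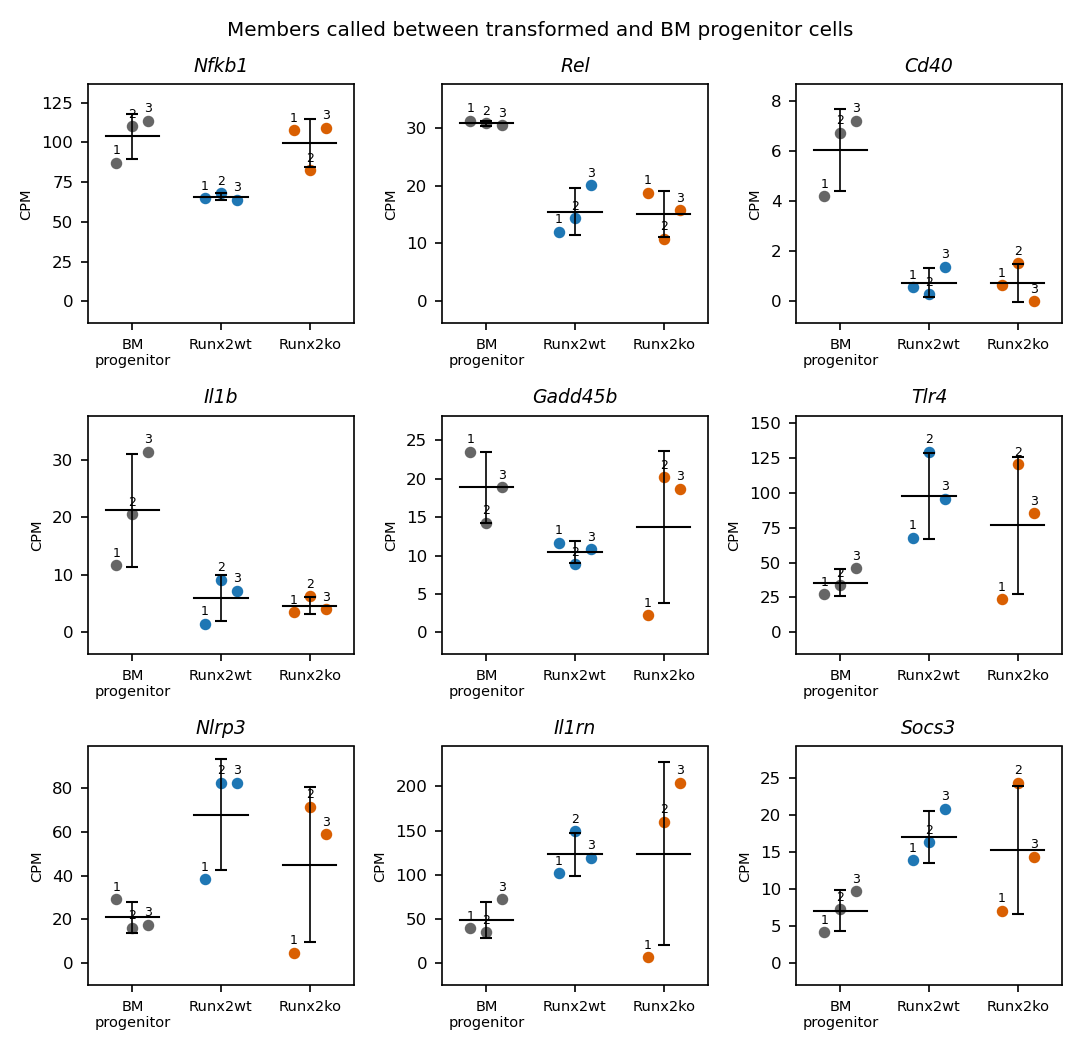
CPM of 9 of the 10 genes that passed against BM progenitor with all 9 libraries or without Runx2ko replicate 1; points are libraries numbered by replicate, horizontal lines are group means and bars are 1 SD (n = 3). Nfkb1, Rel, Cd40 and Il1b lie lower in Runx2wt than in every BM progenitor library, and Runx2ko replicate 1 is the lowest of all libraries for Tlr4, Nlrp3, Il1rn and Gadd45b.

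Among the receptors and sensors, Tlr4, the receptor for bacterial lipopolysaccharide, was at 27.2, 33.99 and 45.9 CPM in BM progenitor, 67.7, 129 and 95.7 CPM in Runx2wt and 23.9, 120.3 and 85.4 CPM in Runx2ko. All 3 Runx2wt libraries lay above all 3 BM progenitor libraries, as did Runx2ko replicates 2 and 3, and replicate 1 of Runx2ko lay below them. For Runx2wt against BM progenitor its difference passed without Runx2ko replicate 1 (log2 fold change 1.45, SE 0.27, edgeR adjusted p = 0.00295) and not with all 9 libraries (log2 fold change 1.45, SE 0.499, edgeR adjusted p = 0.0806). Nlrp3, the sensor of an inflammasome that activates IL-1 beta, was at 29.2, 16.2 and 17.6 CPM in BM progenitor, 38.4, 82.3 and 82.3 CPM in Runx2wt and 4.85, 71.4 and 58.8 CPM in Runx2ko. Its Runx2wt libraries were likewise above every BM progenitor library. It passed without Runx2ko replicate 1 (log2 fold change 1.67, SE 0.31, edgeR adjusted p = 0.003) and not with all libraries (log2 fold change 1.68, SE 0.72, edgeR adjusted p = 0.145).

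Tlr2, a receptor for bacterial lipoproteins, was at 31.9, 33.2 and 43.96 CPM in BM progenitor, 15.8, 18.3 and 53.4 CPM in Runx2wt and 12.6, 36.7 and 41.5 CPM in Runx2ko. Clec4e, which codes for Mincle, a receptor for mycobacterial glycolipids, was at 178, 166 and 199 CPM in BM progenitor, 118, 158 and 335 CPM in Runx2wt and 61.8, 143 and 131 CPM in Runx2ko. Both overlapped between Runx2wt and BM progenitor, with Runx2wt replicate 3 above and replicates 1 and 2 below every BM progenitor library.

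The adaptors and kinases gave no call in any comparison. Myd88, the adaptor of most Toll-like receptors, was at 97.3, 108 and 114 CPM in BM progenitor, 56.8, 77.3 and 119 CPM in Runx2wt and 34.9, 124 and 80.5 CPM in Runx2ko. Irak1, a kinase that acts just after Myd88, was at 209.8, 206 and 198 CPM in BM progenitor, 219, 308 and 214 CPM in Runx2wt and 283, 265 and 321 CPM in Runx2ko. Irak1 was higher in each transformed library than in each BM progenitor library, and passed in neither Runx2wt (log2 fold change 0.27, SE 0.17, edgeR adjusted p = 0.31) nor Runx2ko (log2 fold change 0.501, SE 0.17, edgeR adjusted p = 0.0764), nor without Runx2ko replicate 1 (edgeR adjusted p = 0.261 and 0.0604). Ripk2, the kinase that acts after the NOD receptors, was at 8.39, 17.8 and 14.7 CPM in BM progenitor, 9.97, 14.97 and 20.03 CPM in Runx2wt and 11.97, 14.3 and 17.9 CPM in Runx2ko. Ikbke, an IKK-related kinase, was at 60.9, 42.9 and 71.1 CPM in BM progenitor, 25.6, 85.6 and 67.6 CPM in Runx2wt and 16.2, 67.2 and 84.02 CPM in Runx2ko. Mapkapk2, a kinase after p38 that stabilises cytokine messages, was at 679.9, 583 and 613 CPM in BM progenitor, 456, 459.8 and 666 CPM in Runx2wt and 246, 509.8 and 501 CPM in Runx2ko. For Ikbke and Mapkapk2 the lowest of all 9 libraries was Runx2ko replicate 1.

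The subunit genes did not move as one. Rel, which codes for c-Rel and whose kB site is printed above, was at 31.2, 30.8 and 30.4 CPM in BM progenitor, 12.04, 14.4 and 20.03 CPM in Runx2wt and 18.8, 10.8 and 15.7 CPM in Runx2ko. Every transformed library was below every BM progenitor library. Rel fell in Runx2wt (log2 fold change -0.99, SE 0.27, edgeR adjusted p = 0.0424) and in Runx2ko (log2 fold change -1.03, SE 0.27, edgeR adjusted p = 0.0328), the comparisons sharing their BM progenitor libraries. Both calls held without Runx2ko replicate 1 (edgeR adjusted p = 0.0138 and 0.0106).

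Nfkb1, which codes for p105 and its product p50, was at 87.2, 110.3 and 114 CPM in BM progenitor, 64.9, 68.2 and 63.99 CPM in Runx2wt and 108, 82.4 and 109 CPM in Runx2ko. The 3 Runx2wt libraries lay close together and below all the others, and the Runx2ko libraries overlapped BM progenitor. Nfkb1 fell in Runx2wt against BM progenitor (log2 fold change -0.66, SE 0.17, edgeR adjusted p = 0.0382), also without Runx2ko replicate 1 (edgeR adjusted p = 0.016). Runx2ko against BM progenitor gave log2 fold change -0.057, SE 0.17, edgeR adjusted p = 0.851, and an edgeR adjusted p of 0.673 without Runx2ko replicate 1.

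Nfkb2, which codes for p100 and p52, was at 25.2, 26.4 and 30.6 CPM in BM progenitor, 11.1, 11.9 and 25.04 CPM in Runx2wt and 8.09, 19.6 and 13.3 CPM in Runx2ko. All 6 transformed libraries were below BM progenitor, and the difference passed in neither group (edgeR adjusted p = 0.202 for Runx2wt and 0.111 for Runx2ko, and 0.0899 and 0.153 without Runx2ko replicate 1). Nfkb2 shares its 3' end with Psd on the other strand, and whether strand was used in counting is not stated. Rela, which codes for p65, was at 109.8, 109 and 102 CPM in BM progenitor, 107, 152 and 166 CPM in Runx2wt and 111, 147 and 144 CPM in Runx2ko. It did not pass against BM progenitor in Runx2wt (log2 fold change 0.41, SE 0.19, edgeR adjusted p = 0.184) or in Runx2ko (log2 fold change 0.33, SE 0.19, edgeR adjusted p = 0.271), nor without Runx2ko replicate 1 (edgeR adjusted p = 0.106 and 0.107). Relb, the partner of p52, was at 22.3, 35.6 and 26.3 CPM in BM progenitor, 8.09, 21.1 and 37.6 CPM in Runx2wt and 8.41, 24.9 and 18.4 CPM in Runx2ko, and its Runx2wt libraries spanned all of the BM progenitor range.

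The 7 inhibitors and feedback regulators include genes that NF-kB is known to switch on against itself. Nfkbia, which codes for IkB alpha, the fast-made inhibitor of the loop, was at 499, 547 and 631 CPM in BM progenitor, 467, 852 and 1252 CPM in Runx2wt and 155, 959.7 and 683 CPM in Runx2ko. It spread from 467 to 1252 CPM within Runx2wt and from 155 to 960 CPM within Runx2ko, against 499 to 631 CPM within BM progenitor, and passed in no comparison. Tnfaip3, which codes for A20, an enzyme that edits ubiquitin chains to end signalling, was at 16.1, 17.3 and 15.5 CPM in BM progenitor, 6.77, 13.9 and 17.8 CPM in Runx2wt and 3.56, 16.9 and 12.2 CPM in Runx2ko. Tnip1, an A20 binding partner, was at 154, 132 and 131 CPM in BM progenitor, 76.2, 114 and 174 CPM in Runx2wt and 83.5, 167 and 132 CPM in Runx2ko. For Tnfaip3 and Tnip1, Runx2wt replicate 1 was below and replicate 3 above every BM progenitor library.

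Nfkbie, which codes for IkB epsilon, was at 11.9, 11.6 and 10.4 CPM in BM progenitor, 5.64, 10.8 and 15.3 CPM in Runx2wt and 8.41, 12.4 and 9.76 CPM in Runx2ko. Nfkbiz, which codes for IkB zeta, a nuclear cofactor for secondary targets, was at 13.1, 18.6 and 12.96 CPM in BM progenitor, 3.20, 22.2 and 32.8 CPM in Runx2wt and 27.2, 16.7 and 18.4 CPM in Runx2ko. Bcl3, a nuclear IkB that binds p50 and p52, was at 13.9, 17.8 and 20.4 CPM in BM progenitor, 9.60, 21.1 and 24.2 CPM in Runx2wt and 0, 14.1 and 14.1 CPM in Runx2ko. The 0 for Bcl3 in Runx2ko replicate 1 allows up to 0.970 CPM (3 counts, counting error only), and its level elsewhere was at least 9.60 CPM. Socs3, an inhibitor of JAK kinases, was at 4.20, 7.28 and 9.77 CPM in BM progenitor, 13.9, 16.4 and 20.9 CPM in Runx2wt and 7.12, 24.4 and 14.4 CPM in Runx2ko. Its Runx2wt libraries were all above BM progenitor, and it passed without Runx2ko replicate 1 (log2 fold change 1.26, SE 0.36, edgeR adjusted p = 0.023) and not with all libraries (edgeR adjusted p = 0.099).

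The cytokine genes differed from one another. Il1b, which codes for the inflammasome product IL-1 beta, was at 11.7, 20.5 and 31.4 CPM in BM progenitor, 1.51, 9.15 and 7.23 CPM in Runx2wt and 3.56, 6.28 and 4.07 CPM in Runx2ko. All transformed libraries were below all BM progenitor libraries. Il1b fell in Runx2ko (log2 fold change -2.17, SE 0.62, edgeR adjusted p = 0.0408), also without Runx2ko replicate 1 (edgeR adjusted p = 0.0355). For Runx2wt it passed without Runx2ko replicate 1 (log2 fold change -1.87, SE 0.55, edgeR adjusted p = 0.0267) and not with all libraries (log2 fold change -1.85, SE 0.61, edgeR adjusted p = 0.0712). Il1rn, the secreted antagonist that blocks the IL-1 receptor, was at 39.96, 35.3 and 72.2 CPM in BM progenitor, 102, 149 and 119 CPM in Runx2wt and 7.12, 160.0 and 204 CPM in Runx2ko. It was above BM progenitor in all Runx2wt libraries and in Runx2ko replicates 2 and 3. It passed for Runx2wt without Runx2ko replicate 1 (log2 fold change 1.32, SE 0.26, edgeR adjusted p = 0.00415) and not with it (edgeR adjusted p = 0.288). So, without that library, the agonist gene Il1b was lower and the antagonist gene Il1rn higher in both transformed groups than in BM progenitor.

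Il6, which codes for a cytokine also supplied in the medium, was at 10.04, 15.4 and 22.1 CPM in BM progenitor, 0, 0 and 8.62 CPM in Runx2wt and 35.9, 0.952 and 1.08 CPM in Runx2ko. Its counts in Runx2wt were 0, 0 and 31, and in Runx2ko 111, 5 and 4, so that 1 library held most of the count in each transformed group. The 0 counts allow up to 0.564 CPM in Runx2wt replicate 1 and 0.831 CPM in replicate 2. Il6 was lower in Runx2ko than in BM progenitor without Runx2ko replicate 1 (log2 fold change -3.93, SE 1.33, edgeR adjusted p = 0.0453). With all libraries it gave log2 fold change -0.35, SE 1.46, edgeR adjusted p = 0.889, and without Runx2ko replicate 2 or replicate 3 the estimate was 0.18. Tnf, an early cytokine of the inflammatory response, was at 24.3, 24.5 and 26.3 CPM in BM progenitor, 19.8, 34.6 and 108 CPM in Runx2wt and 5.499, 43.6 and 27.4 CPM in Runx2ko. The BM progenitor libraries lay close together, and Runx2wt replicate 3 was the highest of all 9. Il1a was at 1.28, 1.35 and 6.37 CPM in BM progenitor, 1.32, 4.16 and 5.56 CPM in Runx2wt and 0, 0 and 1.36 CPM in Runx2ko, at most 30 counts in any library, and shares its 3' end with the transcript Gm14023 on the other strand.

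Of the surface molecules, Cd40, a receptor through which T cells activate antigen-presenting cells, was at 4.20, 6.74 and 7.22 CPM in BM progenitor, 0.564, 0.277 and 1.39 CPM in Runx2wt and 0.647, 1.52 and 0 CPM in Runx2ko. No transformed library had more than 8 counts and no BM progenitor library fewer than 23, and the groups did not overlap. Cd40 fell in Runx2wt (log2 fold change -2.995, SE 0.85, edgeR adjusted p = 0.0463) and in Runx2ko (log2 fold change -2.92, SE 0.84, edgeR adjusted p = 0.0421), and passed in both without Runx2ko replicate 1 (edgeR adjusted p = 0.0179 and 0.0384). Dendritic cell markers, of which 5 of 9 passed as lower in Runx2wt and 4 of 9 in Runx2ko, are given by sum beside the 2 comparisons. B cell markers summed to 63.7 to 97.1 CPM in BM progenitor, 43.7 to 95.9 CPM in Runx2wt and 88.0 to 134 CPM in Runx2ko. Cd86, a ligand that co-stimulates T cells through CD28, was at 8.94, 7.82 and 5.52 CPM in BM progenitor, 6.02, 3.33 and 28.7 CPM in Runx2wt and 4.53, 6.09 and 14.6 CPM in Runx2ko. Cd80, its relative, was at 2.74, 2.43 and 1.70 CPM in BM progenitor, 2.45, 2.49 and 5.56 CPM in Runx2wt and 0, 1.90 and 1.90 CPM in Runx2ko and was not tested with all 9 libraries. For both, the highest of all 9 libraries was Runx2wt replicate 3. Cd83, a marker of activated antigen-presenting cells, was at 1.09, 4.86 and 4.67 CPM in BM progenitor, 0.188, 1.11 and 4.73 CPM in Runx2wt and 0.647, 2.66 and 1.08 CPM in Runx2ko. Plaur, the urokinase receptor, was at 41.6, 45.6 and 60.95 CPM in BM progenitor, 43.5, 59.6 and 68.2 CPM in Runx2wt and 6.47, 46.6 and 84.3 CPM in Runx2ko. For Cd80, Cd83, Cd86 and Plaur the highest Runx2wt library was replicate 3, and their groups overlapped between Runx2wt and BM progenitor.

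Of the survival and stress genes, Gadd45b, a stress-signal protein, was at 23.5, 14.3 and 18.9 CPM in BM progenitor, 11.7, 8.87 and 10.9 CPM in Runx2wt and 2.26, 20.2 and 18.7 CPM in Runx2ko. Its Runx2wt libraries were all below BM progenitor, and it passed without Runx2ko replicate 1 (log2 fold change -0.86, SE 0.27, edgeR adjusted p = 0.0339) and not with all libraries (edgeR adjusted p = 0.349). Birc3, which codes for the ubiquitin ligase cIAP2, was at 29.7, 42.9 and 35.3 CPM in BM progenitor, 21.6, 35.5 and 43.7 CPM in Runx2wt and 34.6, 55.4 and 42.8 CPM in Runx2ko. Traf1, a signalling adaptor, was at 6.20, 13.5 and 7.86 CPM in BM progenitor, 1.51, 4.71 and 10.02 CPM in Runx2wt and 7.12, 7.99 and 1.08 CPM in Runx2ko. For both, Runx2wt replicate 1 was below every BM progenitor library while the groups overlapped. Cflar, which codes for the caspase-8 inhibitor c-FLIP, was at 63.1, 56.6 and 60.5 CPM in BM progenitor, 81.7, 77.6 and 69 CPM in Runx2wt and 77.6, 60.9 and 119.5 CPM in Runx2ko, with all Runx2wt libraries above BM progenitor and no call. Sod2, the mitochondrial superoxide dismutase, was at 385, 351 and 402 CPM in BM progenitor, 252, 425 and 504 CPM in Runx2wt and 142, 397 and 239 CPM in Runx2ko. Its lowest library of all was Runx2ko replicate 1. Sqstm1, which codes for the autophagy receptor p62, was at 369.5, 328 and 349 CPM in BM progenitor, 214, 346 and 704 CPM in Runx2wt and 1373, 358 and 342 CPM in Runx2ko. The level in Runx2ko replicate 1 was above all other libraries. Sqstm1 shares its 3' end with Mrnip on the other strand.

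Tnfaip2, a gene induced by TNF, was at 401, 369.6 and 407 CPM in BM progenitor, 196, 277 and 361 CPM in Runx2wt and 156, 352 and 398 CPM in Runx2ko. All Runx2wt libraries were below BM progenitor, without a call with all libraries (log2 fold change -0.497, SE 0.33, edgeR adjusted p = 0.325) or without Runx2ko replicate 1 (edgeR adjusted p = 0.0811). Marcksl1, an actin-binding protein, was at 24.5, 33.2 and 23.6 CPM in BM progenitor, 20.1, 19.7 and 46.7 CPM in Runx2wt and 15.8, 33.7 and 20.3 CPM in Runx2ko, with overlapping groups.

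**Figure D3:**
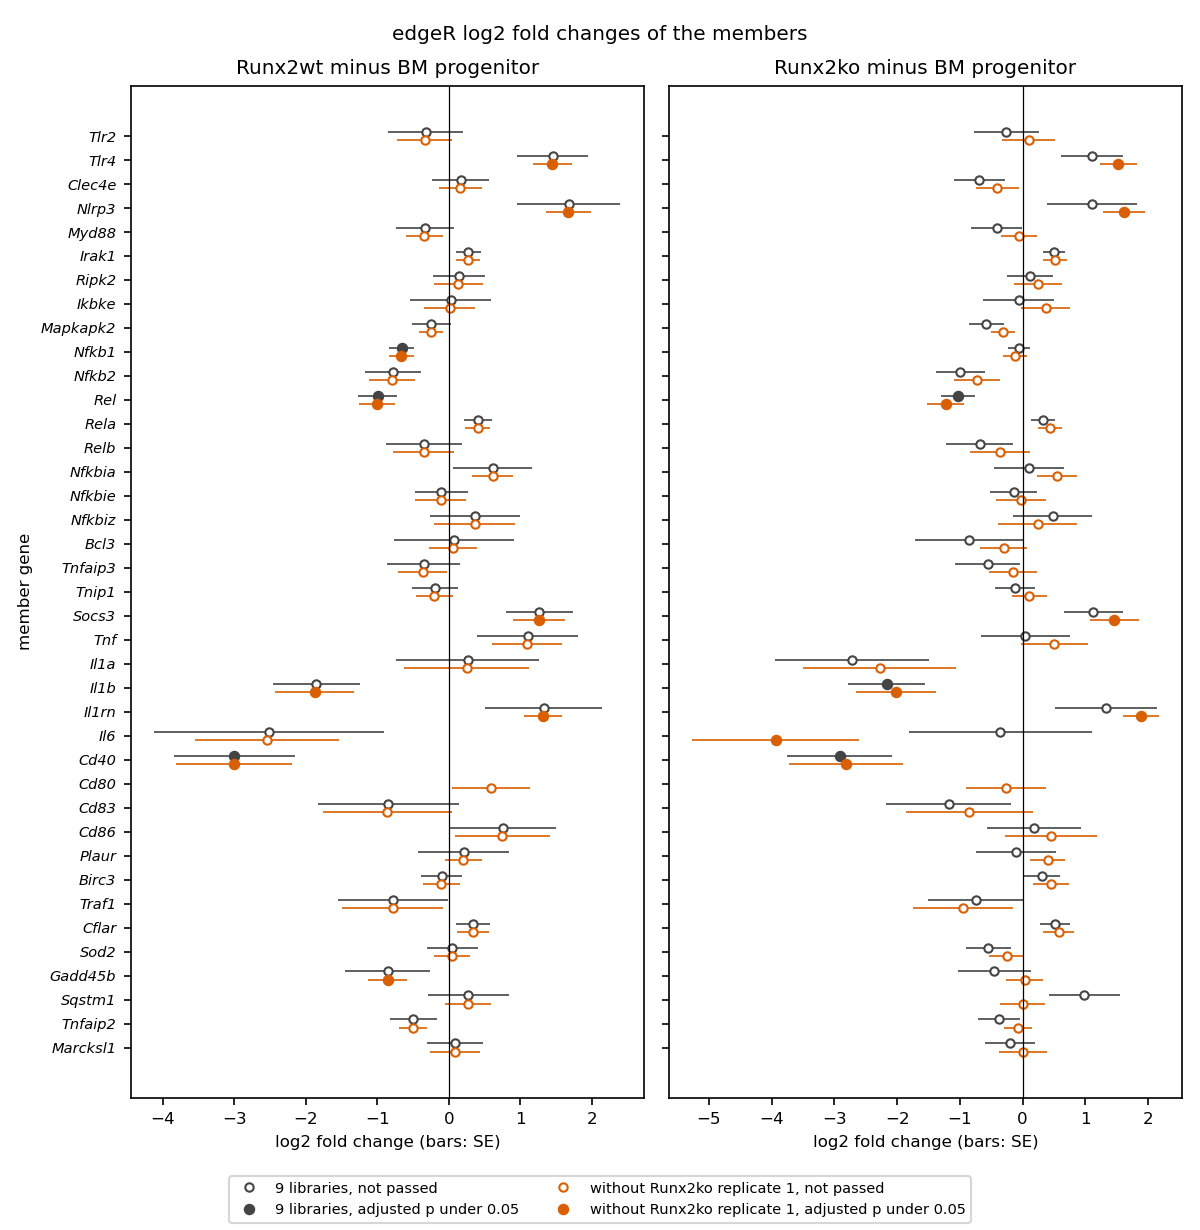
log2 fold changes (points) with SE (bars) of the 39 genes for Runx2wt minus BM progenitor (left) and Runx2ko minus BM progenitor (right), with all 9 libraries (grey) and without Runx2ko replicate 1 (orange); filled points passed. The bars of Tlr4, Nlrp3 and Il1rn are narrower without that library, and Rel, Il1b and Cd40 are below 0 in both panels.

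In Runx2ko against BM progenitor, which uses the same BM progenitor libraries, Rel, Il1b and Cd40 were lower and no gene of the list was higher. Leaving out Runx2ko replicate 1, Tlr4, Nlrp3, Socs3 and Il1rn were higher, and Rel, Il1b, Il6 and Cd40 lower. Estimates over the 17 alternatives ran from -1.22 to -0.84 for Rel, -2.47 to -1.79 for Il1b and -4.20 to -2.38 for Cd40 on the log2 scale. So 0 of 38 were higher, where 10.0% of all genes were, and 3 of 38 lower, where 7.14% were. Without that library the counts were 4 of 39 higher (15.9% of all genes) and 4 of 39 lower (12.6%). Groups did not overlap for 2 of the 38 that were higher (Irak1 and Rela, 19.5% of all genes) and 6 that were lower (18.8%), namely Clec4e, Mapkapk2, Nfkb2, Rel, Il1b and Cd40. The median log2 fold change was -0.17 over the 38 genes and 0.067 over all genes with all libraries. With 8 libraries it was 0.0026 over 39 genes and -0.0022 over all genes.

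Markers of other cells differed in this comparison too, and their part in the results was not tested. The summed neutrophil markers (4 of 16 lower and 1 higher) ran from 1089 to 10709 CPM in Runx2ko, below the BM progenitor libraries given above. Eosinophil markers (7 of 8 lower) ran from 8.75 to 18.1 CPM and dendritic cell markers (4 of 9 lower) from 57.7 to 134 CPM, likewise below BM progenitor. Monocyte and macrophage markers (2 of 17 higher and 3 lower) ran from 759 to 11999 CPM and overlapped BM progenitor. Mast cell and basophil markers (2 of 11 higher and 0 lower) ran from 91.3 to 6278 CPM, with Runx2ko replicate 1 the highest. Without that library 2 of these 11 were higher and 6 lower. Erythroid and megakaryocyte markers (2 of 5 higher) ran from 39.6 to 811 CPM, again highest in replicate 1.

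The receptor gene Tlr4 gave log2 fold change 1.53, SE 0.29, edgeR adjusted p = 0.00351 without Runx2ko replicate 1. With all libraries it gave log2 fold change 1.11, SE 0.496, edgeR adjusted p = 0.152. Nlrp3 gave log2 fold change 1.62, SE 0.34, edgeR adjusted p = 0.00539 without that library and log2 fold change 1.103, SE 0.72, edgeR adjusted p = 0.313 with it. Socs3 gave log2 fold change 1.46, SE 0.39, edgeR adjusted p = 0.017 without it and log2 fold change 1.12, SE 0.47, edgeR adjusted p = 0.127 with it. Il1rn gave log2 fold change 1.88, SE 0.29, edgeR adjusted p = 0.000978 without it and log2 fold change 1.33, SE 0.81, edgeR adjusted p = 0.282 with it. In each of these 4 genes Runx2ko replicate 1 was the lowest of the Runx2ko libraries, and the other 2 were above all BM progenitor libraries. None of the 38 passed without BM progenitor replicate 1 (smallest adjusted p 0.0638), 2 (0.100) or 3 (0.0957), or without Runx2ko replicate 3 (0.0597). The smallest edgeR adjusted p over all genes rose in these fits too. It was 5.57e-05 with all libraries and 0.00077, 0.00114, 0.00139 and 0.000686 in the same order of fits. Cd40 alone passed without Runx2ko replicate 2. Rel and Il1b passed without Runx2wt replicate 1, Il1b alone without Runx2wt replicate 2 and Rel alone without Runx2wt replicate 3.

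The comparison of Runx2ko with Runx2wt asks what 4-OHT and Cre activity changed within transformed cells. None of the 38 genes passed in either direction with edgeR, as none did of all tested genes (0% higher and 0% lower). Without Runx2ko replicate 1, none of 39 passed, where 0.0172% of all genes were higher and 0.0258% lower. The smallest edgeR adjusted p among the 38 was 0.579. An unadjusted p under 0.05 was reached by 2 of the 38, Nfkb1 and Il1a, and DESeq2 and limma-voom called none of the list. Over all genes the smallest adjusted p was 4.37e-06 with DESeq2, so genes outside the list passed there, and 0.333 with limma-voom. The median log2 fold change was -0.083 over the 38 genes and 0.013 over all genes, and 0.040 and -0.014 without Runx2ko replicate 1.

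Nfkb1 was the single gene of the 38 whose groups did not overlap. It was higher in every Runx2ko library than in every Runx2wt library, where 4.95% of all genes were so, and none of the 38 was lower throughout, where 4.73% of all genes were. Its difference did not pass with all libraries (log2 fold change 0.602, SE 0.17, edgeR adjusted p = 0.579) or without Runx2ko replicate 1 (log2 fold change 0.54, SE 0.19, edgeR adjusted p = 0.491). The estimates of largest size were those of Il1a (log2 fold change -2.98, SE 1.23, edgeR adjusted p = 0.599), Il6 (log2 fold change 2.15, SE 1.61, edgeR adjusted p = 0.757), Tnf (log2 fold change -1.06, SE 0.71, edgeR adjusted p = 0.723), Bcl3 (log2 fold change -0.93, SE 0.86, edgeR adjusted p = 0.817), Clec4e (log2 fold change -0.86, SE 0.404, edgeR adjusted p = 0.649) and Sqstm1 (log2 fold change 0.71, SE 0.57, edgeR adjusted p = 0.775). Leaving out Runx2ko replicate 1, the estimates for Il6 and Sqstm1 turned negative, at -1.40 and -0.27. Those for Il1a, Tnf, Bcl3 and Clec4e were then -2.53, -0.59, -0.36 and -0.56, again with no call. A lack of a call does not show that levels were alike, given SE of this size.

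The libraries of a transformed group differed from one another more for these genes than for all genes, a pattern that was noticed after values had been seen. The median range within a group, in log2(CPM + 1), was 1.14 over the 38 genes in Runx2wt and 0.53 over all tested genes. In Runx2ko it was 1.40 and 0.79, and in BM progenitor 0.48 and 0.36. The Runx2ko range takes in replicate 1, which stood apart. Replicate 1 was lowest in Runx2ko for 28 of the 38, where it was lowest for 36.9% of all genes. Whether Runx2ko replicates 2 and 3 alone differ more for these genes was not tested. Within Runx2wt, replicate 3 was highest for 30 of the 38, where it was highest for 35.5% of all genes. Replicate 1 was lowest for 30 of the 38, where it was lowest for 31.5% of all genes. The median difference between replicates 3 and 1 was 1.14 over the 38 and -0.010 over all genes. It exceeded 1 for 22 of the 38 and for 5.15% of all genes. These are 2 libraries of 1 group, so the pattern has no replicate and no test.

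**Figure D4:**
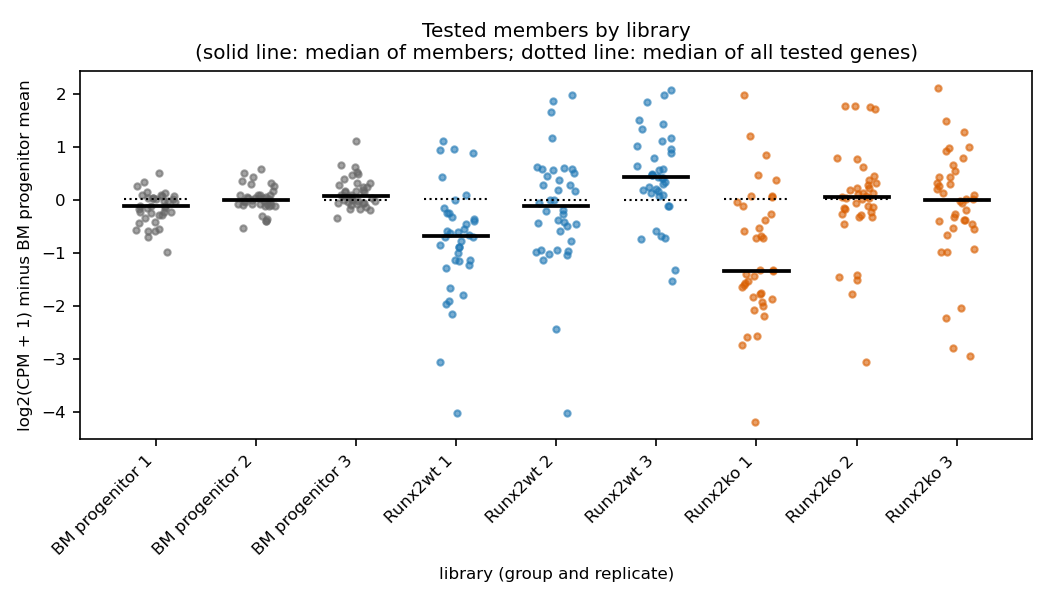
Difference in log2(CPM + 1) from the BM progenitor mean for the 38 tested genes (points) in each library; solid lines are the medians of these genes and dotted lines those of 11196 genes. The solid lines lie at -0.68, -0.12 and 0.42 in Runx2wt and at -1.33, 0.048 and -0.0075 in Runx2ko, while the dotted lines stay near 0.

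All 7 inhibitors and feedback regulators were highest in Runx2wt replicate 3 and lowest in replicate 1. Nfkbiz ran from 3.20 to 32.8 CPM and Nfkbia from 467 to 1252 CPM. Tnf ran from 19.8 to 108 CPM, Relb from 8.09 to 37.6 CPM and Clec4e from 118 to 335 CPM in the same order of libraries. Nfkb1 was the exception among the subunits, at 64.9, 68.2 and 63.99 CPM in Runx2wt. Cflar and Gadd45b were highest in replicate 1. Of 31 other known NF-kB-induced genes that were tested, 20 were highest in Runx2wt replicate 3 and none was lowest there. Among all tested genes, 35.5% were highest and 35.5% lowest in that library of the group. The summed monocyte and macrophage markers were at 7070, 8730 and 13215 CPM. Lyz2, the lysozyme gene, made up most of that sum, and without it, a choice made after seeing the values, the order turned, at 3327, 3558 and 2486 CPM. Of the 17 tested markers 11 were highest in replicate 3 and 5, among them Ly6c2 (2496, 2620 and 1202 CPM), were lowest there. The part of these markers in the pattern was not tested.

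**Figure D5:**
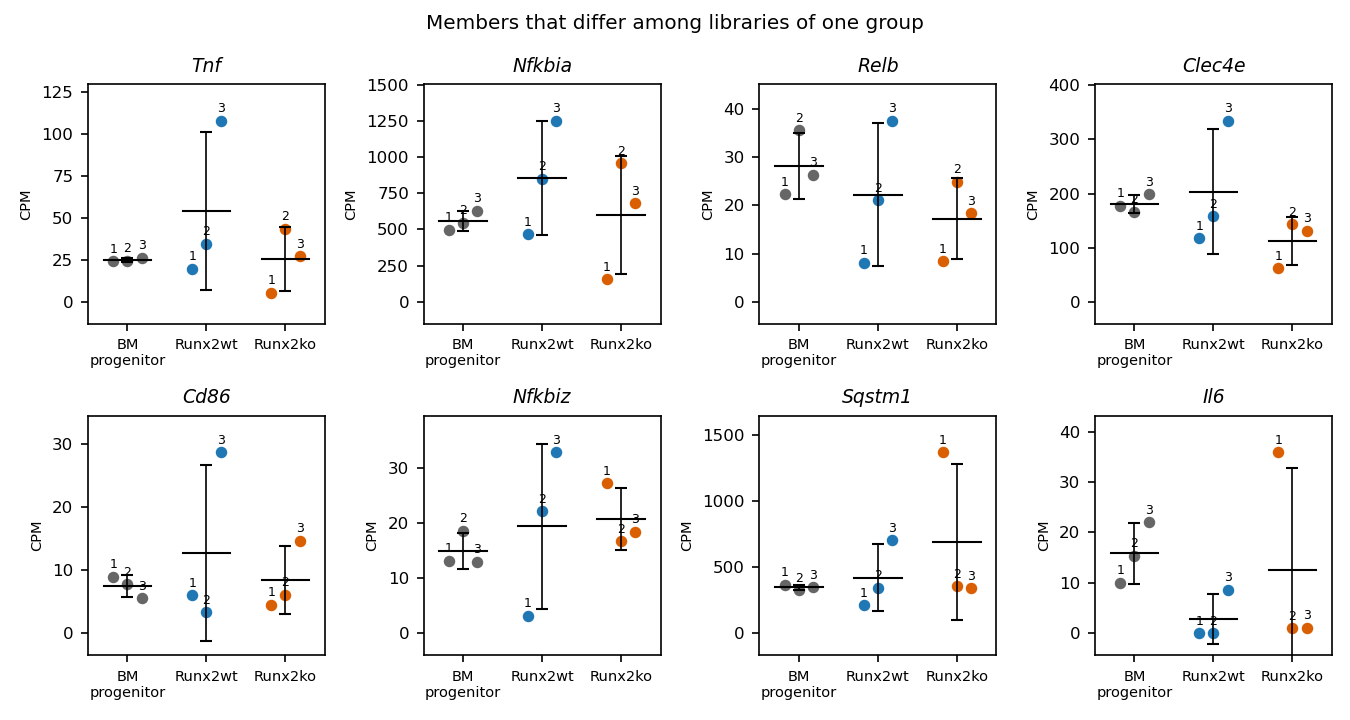
CPM of 8 genes that differ among libraries of a group; points are libraries numbered by replicate, lines are group means and bars are 1 SD (n = 3). Tnf, Nfkbia, Relb, Clec4e, Cd86 and Nfkbiz are highest in Runx2wt replicate 3 among the Runx2wt libraries, and Sqstm1 and Il6 are highest of all libraries in Runx2ko replicate 1.

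Runx2ko replicate 1 was below all 5 other transformed libraries for 19 of the 38 genes, where it was so for 27.6% of all genes. These 19 included all 4 receptors and sensors, together with Myd88, Nfkbia, Tnfaip3, Tnf and Il1rn. Il1rn was at 7.12 CPM there and at 101.6 to 204 CPM in the other transformed libraries. It was above all 5 for 2 genes, Il6 and Sqstm1, where it was so for 29.6% of all genes. Nfkb1 in this library lay between the other Runx2ko libraries, and Rel above them. Some of the marker sums that set this library apart are given above, and the part of these markers in these levels was not tested.

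Among 117 other genes of the pathway, 102 were tested. In Runx2wt against BM progenitor 5 were higher and 5 lower, in Runx2ko against BM progenitor 5 and 6, and in Runx2ko against Runx2wt none. As shares of the 102 these are 4.90% and 4.90% in Runx2wt, where 8.28% and 5.23% of all genes passed, and 4.90% and 5.88% in Runx2ko, where 10.0% and 7.14% did. When Runx2ko replicate 1 was left out, the first comparison gave 16 higher and 10 lower of 104, and the Runx2ko comparison with BM progenitor 19 and 9. Those shares were 15.4% and 9.62% in Runx2wt, against 15.9% and 12.1% of all genes, and 18.3% and 8.65% in Runx2ko, against 15.9% and 12.6%. The shares of these pathway genes thus lay near or below those of all genes, except for higher genes in Runx2ko without that library, whose difference from all genes was not tested. By role, the IKK complex and upstream kinases had 1 gene higher and 1 lower of 14 in Runx2wt, the TRAF, ubiquitin and death-domain adaptors none of 19 and the inflammasome genes none of 7. The other receptors had none of 18, the other inhibitors 2 lower of 13, and the other induced targets 4 higher and 2 lower of 31. In Runx2ko the kinases had 1 higher of 14, the adaptors and inflammasome genes none, and the receptors 1 higher and 1 lower of 18. The inhibitors had 3 lower of 13, where 7.14% of all genes were, and the induced targets 3 higher and 2 lower of 31. Without Runx2ko replicate 1, Runx2ko had 3 kinases higher and 1 lower, 2 and 1 adaptors, and 1 inflammasome gene higher. The receptors there were 5 and 2 of 19, the inhibitors 1 and 3 of 13 and the induced targets 7 and 2 of 32. Without Runx2ko replicate 1 the counts in Runx2wt were 2 higher and 1 lower of 14 kinases, 3 and 1 of 19 adaptors, none of 7 inflammasome genes, 2 and 3 of 19 receptors, 1 and 2 of 13 inhibitors and 8 and 3 of 32 induced targets.

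Each call named for a pathway gene here held without Runx2ko replicate 1. Ikbkg, which codes for NEMO, the regulatory subunit of IKK, was at 41.8, 28.9 and 25.9 CPM in BM progenitor, 52.3, 78.7 and 72.6 CPM in Runx2wt and 74.4, 72.5 and 66.1 CPM in Runx2ko. It rose in Runx2wt (log2 fold change 1.07, SE 0.23, edgeR adjusted p = 0.0195) and in Runx2ko (log2 fold change 1.14, SE 0.23, edgeR adjusted p = 0.0139), with no overlap with BM progenitor. Irak3, an inhibitory Irak family member, was at 51.1, 56.6 and 55.01 CPM in BM progenitor, 6.59, 4.99 and 18.6 CPM in Runx2wt and 30.7, 12.4 and 13.3 CPM in Runx2ko and fell in Runx2wt (log2 fold change -2.44, SE 0.51, edgeR adjusted p = 0.0182). In Runx2ko Irak3 fell without Runx2ko replicate 1 (log2 fold change -2.08, SE 0.43, edgeR adjusted p = 0.00525) and did not pass with it (edgeR adjusted p = 0.0586). Dusp1, a phosphatase that ends MAP kinase signalling, was at 57.1, 63.9 and 62.7 CPM in BM progenitor, 16.4, 31.04 and 22.3 CPM in Runx2wt and 18.4, 28.4 and 29.3 CPM in Runx2ko and fell in Runx2wt (log2 fold change -1.403, SE 0.27, edgeR adjusted p = 0.0135). All transformed libraries were below BM progenitor for Irak3 and Dusp1, and Dusp1 passed as lower in Runx2ko too.

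Saa3, an acute-phase protein, was at 62.2, 48.8 and 44.6 CPM in BM progenitor, 461, 1007 and 1049 CPM in Runx2wt and 11, 591 and 562 CPM in Runx2ko. It rose in Runx2wt (log2 fold change 4.01, SE 1.04, edgeR adjusted p = 0.0366), and Runx2ko replicate 1 was below every BM progenitor library. In Runx2ko Saa3 rose without that library (log2 fold change 3.47, SE 0.31, edgeR adjusted p = 3.94e-05) and did not pass with it (edgeR adjusted p = 0.0729). Csf1, the macrophage growth factor, was at 30.5, 23.7 and 32.9 CPM in BM progenitor, 72.3, 68.7 and 289 CPM in Runx2wt and 94.1, 82.6 and 68.03 CPM in Runx2ko and rose in Runx2wt (log2 fold change 2.298, SE 0.52, edgeR adjusted p = 0.0231). Pim1, a survival kinase, was at 283, 437 and 462 CPM in BM progenitor, 673, 1068 and 793 CPM in Runx2wt and 992, 1081 and 650.2 CPM in Runx2ko and rose in Runx2wt (log2 fold change 1.101, SE 0.27, edgeR adjusted p = 0.0298) and in Runx2ko (log2 fold change 1.205, SE 0.27, edgeR adjusted p = 0.0187). Vcam1, an adhesion molecule, was at 125, 95.5 and 81.8 CPM in BM progenitor, 7.71, 0 and 0.835 CPM in Runx2wt and 0.970, 11.2 and 5.96 CPM in Runx2ko. It fell in Runx2wt (log2 fold change -4.996, SE 0.99, edgeR adjusted p = 0.0151) and in Runx2ko (log2 fold change -3.99, SE 0.93, edgeR adjusted p = 0.0213). Acod1, the itaconate-making enzyme of activated macrophages, was at 57.3, 58.3 and 87.3 CPM in BM progenitor, 4.52, 11.4 and 23.9 CPM in Runx2wt and 1.62, 10.5 and 5.96 CPM in Runx2ko. It fell in Runx2wt (log2 fold change -2.37, SE 0.63, edgeR adjusted p = 0.0385) and in Runx2ko (log2 fold change -3.43, SE 0.67, edgeR adjusted p = 0.0121), with every transformed library of both genes below BM progenitor.

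In Runx2ko against BM progenitor, Il1r2, the decoy receptor for IL-1, was at 10.4, 12.7 and 13.4 CPM in BM progenitor, 21.1, 124 and 119 CPM in Runx2wt and 18.1, 234 and 142 CPM in Runx2ko. It rose (log2 fold change 3.44, SE 0.88, edgeR adjusted p = 0.0295), and all transformed libraries were above BM progenitor. Bcl2l1, which codes for the survival protein Bcl-xL, was at 37.8, 48.02 and 43.1 CPM in BM progenitor, 66.4, 50.4 and 94.03 CPM in Runx2wt and 88.6, 70.2 and 81.6 CPM in Runx2ko and rose (log2 fold change 0.899, SE 0.24, edgeR adjusted p = 0.0317). Clec7a, which codes for the fungal receptor Dectin-1, was at 122, 270.3 and 301 CPM in BM progenitor, 43.1, 29.9 and 66.2 CPM in Runx2wt and 2.91, 35.6 and 30.1 CPM in Runx2ko and fell (log2 fold change -3.31, SE 0.71, edgeR adjusted p = 0.0167). Tnip3, an A20-binding inhibitor, was at 35.6, 36.1 and 40.1 CPM in BM progenitor, 7.71, 8.59 and 35.9 CPM in Runx2wt and 2.59, 7.23 and 6.78 CPM in Runx2ko and fell (log2 fold change -2.72, SE 0.61, edgeR adjusted p = 0.0196). Both lay below BM progenitor in every Runx2ko library. In Runx2wt, Il1r2, Bcl2l1, Clec7a and Tnip3 did not pass with all libraries. Without Runx2ko replicate 1, Il1r2 and Bcl2l1 passed there as higher and Clec7a as lower.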

How the data were processed

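Raw counts by Ensembl identifier and a second table of other, normalized values were deposited. The deposited normalized values were the counts divided by a constant of each library, whose origin is not stated. The submitters' processing notes name FastQC, STAR, DESeq2 and GRCm38. They give no versions, and which counting program, annotation or strand setting the authors used for the counts was not found in the labels.

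Symbols and gene coordinates are those of GENCODE for GRCm38. The raw counts of 3 groups of 3 libraries were tested with edgeR 4.0.16 (R 4.3.3): TMM factors, filterByExpr, the quasi-likelihood F-test with all 9 libraries, and Benjamini-Hochberg adjustment over 11196 genes at 0.05. SE were derived from the F statistic. The steps were tested on simulated data. Intervals and floors of 3 counts cover counting error only. Libraries of a group differed by more than counting noise (a chi-square of 3.44 per gene or more). Alternatives were RLE size factors, other count filters, DESeq2 1.42.0, limma-voom (limma 3.58.1), the normalized values with a pseudocount of 1, only the compared libraries, a replicate block, and leaving out each library.

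The members and all gene lists were chosen with earlier results of these data known. Fold changes are named for genes of the list that passed with or without Runx2ko replicate 1. Where fewer than 3 passed, the 6 with the largest log2 fold changes and those with separate groups are named. Some further fold changes were chosen after their values were seen, among them those of Irak1, Nfkb2, Rela and Tnfaip2. Other pathway genes are named up to 4 per direction and comparison among passing genes, by size, with a mean of at least 10 CPM in 1 group.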

Additional observations from a re-analysis of the deposited data

How the results depend on the processing

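In Runx2wt against BM progenitor the count of higher genes was 0, and became 1 with DESeq2 and 4 with only the compared libraries. The count of lower genes was 3, and became 0 with no filter on low counts and 5 with only the compared libraries. With the replicate block it was 1 in Runx2wt and 1 in Runx2ko against BM progenitor, which was Il1b in both (edgeR adjusted p = 0.0455 and 0.0355). Leaving out 1 library at a time gave 0 to 4 higher and 0 to 5 lower genes for Runx2wt, and 0 to 4 higher and 0 to 4 lower for Runx2ko against BM progenitor. The largest of these counts came without Runx2ko replicate 1, where calls over all genes also rose. In Runx2wt they went from 927 to 1849 higher and from 586 to 1407 lower. In Runx2ko they went from 1125 to 1846 higher and from 799 to 1465 lower. Calls over all genes under the other alternatives are not given in this section. No alternative gave a call among the listed genes for Runx2ko against Runx2wt. Over all genes, 2 were higher and 3 lower in that comparison without Runx2ko replicate 1. For Runx2ko against Runx2wt, the estimate turned negative without Runx2ko replicate 1 for Il6 (-1.40 to 8.75 over the fits that leave out 1 library) and Sqstm1 (-0.27 to 1.30). For Runx2ko against BM progenitor, that of Il6 ran from -3.93 to 0.18 and was above 0 without Runx2ko replicate 2 or replicate 3. The deviations of same-numbered libraries from their group means had correlations from -0.071 to 0.074, and the numbers are not taken as pairs. Within Runx2ko, the deviation of replicate 1 had correlations of -0.743 and -0.806 with those of replicates 2 and 3. That library thus dominates the Runx2ko deviations, and this check cannot exclude pairs. Fits that leave out a library or use only the compared ones also change the number of samples and genes tested, and the cause of other changes was not tested. Depth limits Cd40, Il1a, Il6, Cd80 and Cd83, which had few counts.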
